A study of Mus musculus with 6 samples.

Results

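MHC class II presentation genes were followed in sorted pro-B cells, the bone marrow precursors that rearrange the immunoglobulin heavy chain. The set held 10 genes, matched by gene name among the 54752 gene identifiers of the deposited tables: H2-Aa, H2-Ab1, H2-Eb1, Cd74, Ciita, H2-DMa, H2-DMb1, H2-DMb2, H2-Oa and H2-Ob. Both groups were adult C57BL/6 mice homozygous for a floxed Skiv2l allele (Skiv2lfl/fl). The 3 Skiv2l-deleted mice also carried Cd79a-Cre, which recombines in the B lineage, while the labels name no Cre in the 3 controls. Each mouse gave 1 library of messenger RNA, so n = 3 per group. Cre and the loss of Skiv2l go together in this design and cannot be told apart. The 10 genes were chosen with the difference between these groups in view, in particular the low values of H2-Aa, H2-Ab1 and H2-Eb1 in the Skiv2l-deleted libraries. Their values are therefore given as a description. They were part of the fit over all genes, but no p-value is given for them and their calls support nothing.

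MHC class II molecules are alpha-beta pairs that present peptides from endosomes to CD4 T cells. The pairs are assembled with the invariant chain CD74, which fills the groove until endosomal proteases cut it down to a fragment called CLIP. H2-DM (chains DMa and DMb) then exchanges CLIP for peptide, and H2-DO (chains Oa and Ob), found mainly in B cells, holds DM back. The coactivator CIITA does not bind DNA itself. It docks on RFX, CREB and NF-Y proteins, which sit on the X and Y boxes of class II promoters. In mice, class II is low on early B lineage cells and is carried at high levels by mature B cells.

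Skiv2l, which encodes the helicase of the cytosolic SKI complex, stood at 25.4, 20.2 and 46.3 FPKM (fragments per kilobase of transcript, scaled to library size) in controls 1 to 3. Skiv2l-deleted 1 to 3 gave 9.53, 16.1 and 10.9 FPKM for it, all lower than any control. The limma adjusted p of Skiv2l was 0.063, above the threshold of 0.05, and 0.0172 without control 3 and Skiv2l-deleted 2. The libraries held 1.74 to 2.40 gigabases of aligned sequence, as deduced from the ratio of coverage to FPKM. All 12 pro-B markers examined reached 1 FPKM, and 1 fell and 6 rose by limma. Of all genes tested, 3.87% were called lower and 4.97% higher. The summed level of the 12 markers was 2945 to 4066 FPKM in controls and 4366 to 5427 FPKM in Skiv2l-deleted libraries. The marker that fell was Cd79a, the gene for which the Cre is named, from a mean of 702 to 392 FPKM. Those that rose were Vpreb1, Igll1, Rag1, Rag2, Dntt and Kit. The causes of these differences were not tested. Control 3 and Skiv2l-deleted 2 stood apart from the other 4 libraries on the second principal component. In both, 8 monocyte and macrophage markers had their highest sums, 649 FPKM in control 3 and 1304 FPKM in Skiv2l-deleted 2, against 57.6 to 139 FPKM in the other 4. Most of each sum came from Lyz2 (406 FPKM in control 3, 779.5 FPKM in Skiv2l-deleted 2) and Ly6c2 (220 and 487.5 FPKM). C1qa was at 0 in both, and Mrc1 was below 1 FPKM in every library. The log2 fold changes of the 10 genes and the counts of calls in the gene lists of the pathway are given with and without control 3 and Skiv2l-deleted 2. In bulk libraries such as these, fewer cells that carry a transcript and less transcript per cell cannot be told apart.

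Of the 10 genes, 7 had a promoter window in the RefSeq table used here (GRCm38.p6, 250 bases before to 50 after the start). No window was found for H2-Ab1, Cd74 and Ciita. The stretches below are shown because they hold the letters on which RFX and NF-Y are known to sit, in genes that differed in direction. Capitals mark AAC, a part of the X box, and TGATTGG, which holds the inverted CCAAT of the Y box.
H2-Aa, chr17:34287861-34287912, minus strand: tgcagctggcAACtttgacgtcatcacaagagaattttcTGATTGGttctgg
H2-Eb1, chr17:34305768-34305818, plus strand: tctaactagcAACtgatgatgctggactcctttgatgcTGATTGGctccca
H2-DMb2, chr17:34145118-34145169, plus strand: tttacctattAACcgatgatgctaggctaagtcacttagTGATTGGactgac
H2-Oa, chr17:34092295-34092346, plus strand: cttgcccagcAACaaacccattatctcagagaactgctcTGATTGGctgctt
H2-Ob, chr17:34238810-34238858, plus strand: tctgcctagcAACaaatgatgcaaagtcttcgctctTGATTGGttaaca
H2-Eb2, chr17:34325535-34325585, plus strand: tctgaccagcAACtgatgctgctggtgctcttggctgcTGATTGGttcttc

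The distance from the first base of AAC to the first base of TGATTGG was 29 bases in H2-Aa, H2-DMb2 and H2-Oa, 28 in H2-Eb1 and H2-Eb2, and 26 in H2-Ob. TGATTGG began 50 bases before the RefSeq start in H2-Aa, 61 in H2-Eb1, 45 in H2-Oa, 59 in H2-Ob, 92 in H2-DMb2 and 102 in H2-Eb2. H2-DMb1 held the same pair at 29 bases. TGATTGG, searched on both strands, stood in 7.82% of all 32851 windows. The pair at 26 to 29 bases stood in 0.46% of them and in windows of 6 of the 7 genes. The exception was H2-DMa, for which the table gives 2 windows. The letters and the spacing were picked after these windows had been read, so the shares describe the windows and are no test. The pair was present in genes lower in Skiv2l-deleted libraries (H2-Aa, H2-Eb1), in a gene that was higher (H2-Oa), and in genes whose groups overlapped (H2-DMb1, H2-Ob).

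The classical class II chains stood lower in every Skiv2l-deleted library than in any control. H2-Aa, the alpha chain of I-A (chromosome 17, 34282744 to 34287827, GRCm38), was at 89.0, 72.5 and 76.5 FPKM in controls 1 to 3 and at 12.2, 21.8 and 15.3 FPKM in Skiv2l-deleted 1 to 3. The lowest control was thus well above the highest Skiv2l-deleted library. Group means of 79.3 ± 8.60 and 16.5 ± 4.89 FPKM (SD, n = 3) gave a 4.82-fold difference, and the log2 fold change on log2(FPKM + 1) was −2.23 ± 0.21 (SE). On that scale a value for Skiv2l-deleted minus control is understated in genes of low level.

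H2-Eb1, the beta chain of I-E (34305877 to 34316199), was at 40.0, 34.0 and 32.7 FPKM in controls and 4.33, 9.57 and 5.81 FPKM in Skiv2l-deleted libraries. The groups were far apart here too, with Skiv2l-deleted 2 the highest of its group, as for H2-Aa. The log2 fold change of H2-Eb1 was −2.32 ± 0.25, a 5.41-fold difference of means. The I-E alpha gene is a pseudogene in C57BL/6 (H2-Ea-ps) and was listed at 0 in all 6 libraries.

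H2-Ab1, the I-A beta chain (34263209 to 34269418), was at 136, 111 and 142 FPKM in controls and 53.4, 52.7 and 62.5 FPKM in Skiv2l-deleted libraries. Its groups were separate as well, and its difference was the smallest of the 3 classical chains, 2.31-fold (log2 fold change −1.19 ± 0.13). Skiv2l-deleted 2 was not raised for this gene. The balance of the I-A chains differed between the groups: H2-Aa stood at 0.653, 0.651 and 0.540 of H2-Ab1 in controls and at 0.229, 0.414 and 0.245 in Skiv2l-deleted libraries, in FPKM, which is scaled to length. The summed FPKM of the 3 classical chains was 245 ± 24.3 in controls, against 79.2 ± 8.01 in Skiv2l-deleted libraries.

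Cd74, the invariant chain (chromosome 18, 60803848 to 60812646), was at 162, 144 and 199 FPKM in controls and 34.2, 92.6 and 52.9 FPKM in Skiv2l-deleted libraries. All 3 Skiv2l-deleted values lay under the lowest control, and the highest value of each group came from the library with the highest monocyte markers. Cd74 averaged 168 ± 28.0 and 59.9 ± 29.8 FPKM (SD, n = 3), with a 2.81-fold difference and a log2 fold change of −1.58 ± 0.34. Without control 3 and Skiv2l-deleted 2 the log2 fold change of Cd74 was −1.82. Cd74 over H2-Ab1 was 1.19 to 1.41 in controls, against 0.64, 1.76 and 0.846 in Skiv2l-deleted 1 to 3, so this ratio overlapped between the groups.

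Ciita, the coactivator on which class II transcription depends (chromosome 16, 10480059 to 10528418), had the lowest mean of the 10 genes in Skiv2l-deleted libraries. It was at 9.40, 9.16 and 3.77 FPKM in controls and 0.843, 0.939 and 1.07 FPKM in Skiv2l-deleted libraries. Control 3 was far below the other controls but above every Skiv2l-deleted library. The means were 7.44 ± 3.18 and 0.952 ± 0.117 FPKM, a 7.82-fold difference, with a log2 fold change of −2.03 ± 0.31. In control 3 Ciita was 0.406 of the mean of controls 1 and 2, and H2-Aa, H2-Ab1 and H2-Eb1 were 0.948, 1.14 and 0.883 of it. A relation between Ciita and these chains was not tested. The deposited tables hold gene totals only, so the alternative Ciita promoters used by different cell types were not separated.

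**Figure D1:**
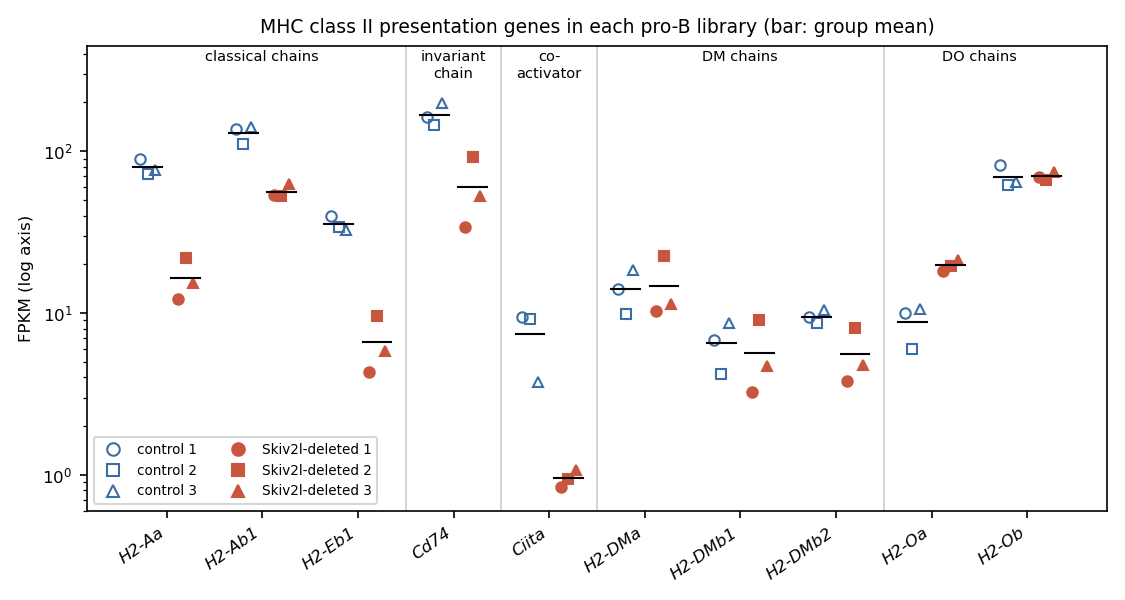
FPKM (log axis) of the 10 class II genes in each of the 6 libraries, grouped by role; open blue symbols are controls, filled red symbols Skiv2l-deleted libraries, the shape gives the replicate number and the bar the group mean. The classical chains, Cd74 and Ciita lie lower in all 3 Skiv2l-deleted libraries, H2-Oa lies higher, and H2-DMa, H2-DMb1 and H2-Ob overlap.

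The DM chains differed less. H2-DMa (chromosome 17, 34135182 to 34139101) was at 14.1, 9.91 and 18.4 FPKM in controls and 10.4, 22.5 and 11.4 FPKM in Skiv2l-deleted libraries, so the groups overlapped (log2 fold change 0.02 ± 0.32, and −0.11 without control 3 and Skiv2l-deleted 2). H2-DMb1 (34153072 to 34160230) overlapped as well, at 6.78, 4.17 and 8.73 FPKM against 3.26, 9.08 and 4.71 FPKM (−0.22 ± 0.36, and −0.36 without both libraries). In both genes the highest library of each group was again control 3 and Skiv2l-deleted 2.

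H2-DMb2, the other DM beta gene (34143307 to 34151553), was at 9.46, 8.64 and 10.4 FPKM in controls and 3.78, 8.10 and 4.77 FPKM in Skiv2l-deleted libraries. Its groups did not overlap, but Skiv2l-deleted 2 came close to control 2, and the log2 fold change was −0.73 ± 0.24 (−0.94 without control 3 and Skiv2l-deleted 2). The DM beta genes are close copies. Their longest coding transcripts were identical at 94.6% of 1219 aligned bases, and 361 of 1355 windows of 50 bases in the H2-DMb1 transcript also stood in that of H2-DMb2. Reads from such windows can be assigned to either gene, so the split between them is uncertain. The H2-DMb2 transcript also shared a window of 50 bases with transcripts of 164 genes outside the set, and H2-DMb1 with 0. Their sum was 16.2, 12.8 and 19.1 FPKM in controls and 7.04, 17.2 and 9.48 FPKM in Skiv2l-deleted libraries, which overlapped. No window of 50 bases was shared between any other pair of the 10 genes in the longest coding transcripts.

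The levels of the DO chains went apart from the classical chains and from each other. H2-Oa, the alpha chain (34092340 to 34095234), was at 9.92, 5.97 and 10.6 FPKM in controls and 18.1, 19.5 and 21.3 FPKM in Skiv2l-deleted libraries. Every Skiv2l-deleted library was above every control, the reverse of H2-Aa. The means were 8.82 ± 2.48 and 19.7 ± 1.61 FPKM, 2.23-fold higher in Skiv2l-deleted cells, with a log2 fold change of 1.10 ± 0.21 (1.24 without control 3 and Skiv2l-deleted 2). An antisense gene that overlaps H2-Oa, BC051537, was at 0 to 0.255 FPKM in controls and 0.468 to 0.541 FPKM in Skiv2l-deleted libraries. The libraries kept strand, but no source used here says whether strand entered the quantification, so reads of the overlap cannot be told apart.

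H2-Ob, the DO beta chain (34238903 to 34245907), was at 82.6, 61.4 and 64.1 FPKM in controls and 69.6, 66.8 and 74.8 FPKM in Skiv2l-deleted libraries. The groups overlapped and the means, 69.3 ± 11.5 and 70.4 ± 4.07 FPKM, lay within the spread of the controls (log2 fold change 0.03 ± 0.14, 95% interval −0.29 to 0.35, and 0.02 without control 3 and Skiv2l-deleted 2). H2-Oa was therefore 0.0972 to 0.165 of H2-Ob in controls and 0.26 to 0.292 of it in Skiv2l-deleted libraries. Relative to DM, H2-Oa over H2-DMa was 0.573 to 0.706 in controls, against 1.75, 0.868 and 1.87 in Skiv2l-deleted 1 to 3.

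The order differed between the groups, too, for the FPKM of the 10 genes within a library. In all 3 controls Cd74 was highest, then H2-Ab1, H2-Aa, H2-Ob and H2-Eb1. In Skiv2l-deleted 1 and 3 H2-Ob led, followed by H2-Ab1 and Cd74, with H2-Oa at rank 4 and H2-Aa at rank 5. In Skiv2l-deleted 2 the order began with Cd74, H2-Ob and H2-Ab1. H2-Ob over H2-Aa was 0.837 to 0.928 in controls, against 5.69, 3.06 and 4.89 in Skiv2l-deleted 1 to 3.

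All 10 genes passed the expression filter of 1 FPKM or more in at least 3 libraries, Ciita mainly through the controls, since it reached 1 FPKM in only 1 Skiv2l-deleted library. The median log2 fold change was −0.96 over the 10 genes and 0.06 over all 13539 genes tested. In 6 of the 10 the Skiv2l-deleted libraries were all below the controls, where 12.3% of all genes tested did the same, and in 1, H2-Oa, all above, where 19.9% did. In the limma fit 5 were past the threshold on the lower side and 1 on the higher, with 3.87% of all genes called lower and 4.97% called higher. The genes were chosen with this contrast known, so nothing is read from these counts. Without control 3 and Skiv2l-deleted 2 the counts were 6 lower and 1 higher (5.73% and 7.3% of 12909 genes), and the median was −1.01.

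**Figure D2:**
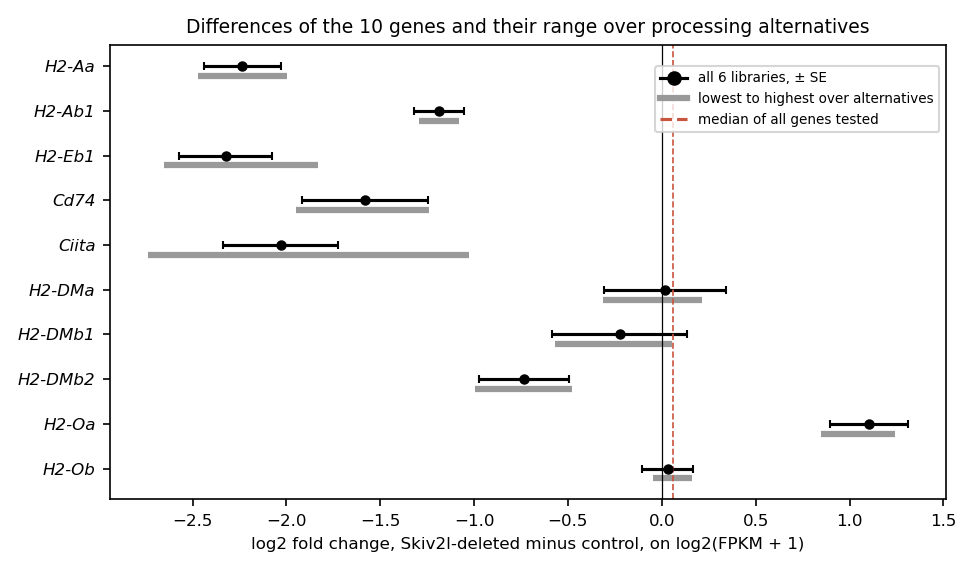
Log2 fold change, Skiv2l-deleted minus control on log2(FPKM + 1), for each of the 10 genes (point, with SE) and its lowest to highest value over the processing alternatives (grey bar); the dashed line is the median of all genes tested, 0.06. H2-Aa, H2-Ab1, H2-Eb1, Cd74, Ciita and H2-DMb2 lie below 0 throughout, H2-Oa above 0, and the bars of H2-DMa, H2-DMb1 and H2-Ob cross 0.

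Other genes of the class II pathway were counted in 7 lists that hold none of the 10 genes. Of 52 tested genes, 1 fell and 1 rose, with 8.84% called among all genes tested. 14 had an unadjusted limma p under 0.05. The share of all genes tested at that unadjusted level is not given here. Nothing is therefore read from this count or from the unadjusted counts of single lists. Their median log2 fold change was 0.13. Without control 3 and Skiv2l-deleted 2, 5 of 48 fell and 6 rose, with 5.73% and 7.3% of all genes tested.

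The factors that hold CIITA at the promoter, listed with Zxdc, the gene of a CIITA cofactor, gave no call. Of 8 tested, 0 passed the threshold by limma (1 at an unadjusted p under 0.05), with a median of −0.03. The 1 was Zxdc, higher in every Skiv2l-deleted library than in any control (means of 4.42 and 6.21 FPKM, limma adjusted p = 0.0868). Without control 3 and Skiv2l-deleted 2, 0 passed as well. Rfx5, the large RFX subunit, was at 21.3, 14.7 and 14.5 FPKM in controls and 16.8, 17.6 and 18.1 FPKM in Skiv2l-deleted libraries (log2 fold change 0.07, 95% interval −0.31 to 0.46, limma adjusted p = 0.831). The RFX subunits Rfxank (0.15, −0.21 to 0.51) and Rfxap (−0.24, −0.57 to 0.09) overlapped between the groups as well.

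Among 14 tested regulators of Ciita, 1 fell, 0 rose and 13 did not pass, at a median of 0.16. The gene that fell was Ezh2, the histone H3K27 methyltransferase of Polycomb, from 345 ± 18.8 to 247 ± 8.84 FPKM (SD, n = 3). Its log2 fold change was −0.48 ± 0.10, at a limma adjusted p of 0.0297. That call was lost in the omission of any single library except control 3 (highest limma adjusted p = 0.151). Irf4, a factor of the B cell promoter of Ciita that is named here after its values were seen, was at 153, 151 and 90.4 FPKM in controls and 72.1, 67.9 and 79.7 FPKM in Skiv2l-deleted libraries. The groups did not overlap for Irf4, and its limma adjusted p was 0.0636, with a range of 0.00633 to 0.198 over 17 alternatives. In control 3 Irf4, like Ciita, was the lowest of the controls. Prdm1, which encodes the Ciita repressor BLIMP1, stayed below 1 FPKM in all 6 libraries and was not tested. Without control 3 and Skiv2l-deleted 2, Spi1 and Irf4 fell beside Ezh2, and the interferon gamma receptor chain Ifngr2 rose.

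Of 10 endosomal processing genes, 0 passed by limma (0 at an unadjusted p under 0.05), at a median of 0.23. Cathepsin S (Ctss), the protease that trims CD74 in B cells, was at 34.4, 27.4 and 44.6 FPKM in controls and 37.5, 81.1 and 48.1 FPKM in Skiv2l-deleted libraries. The highest library of each group was again control 3 and Skiv2l-deleted 2, but Skiv2l-deleted 3 also lay above control 3. Without both libraries, Ctsh fell and Ctsl and Ctsd rose.

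Of 11 tested turnover and trafficking genes, 1 rose and 0 fell. The tetraspanin gene Cd9 rose from 7.57 ± 0.555 to 15.8 ± 0.381 FPKM, a log2 fold change of 0.98 ± 0.11 with a limma adjusted p of 0.00712, and was called in each of 17 alternatives. Cd83, whose product shields class II from ubiquitination by MARCH1, was too low to be tested and is named after its values were seen. It was at 1.24, 0.954 and 1.29 FPKM in controls and 0.0773, 0.205 and 0.0517 FPKM in Skiv2l-deleted libraries, which did not overlap. March1 itself was at 1.39, 0.951 and 1.28 FPKM against 0.0759, 3.52 and 0.284 FPKM, with Skiv2l-deleted 2 above every control. The tetraspanin genes Cd9 and Cd81 were called higher, among 9 tested, without control 3 and Skiv2l-deleted 2.

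Of 4 genes that encode ligands or partners of surface CD74 (Mif, Ddt, Cd44, Cxcr4), 0 passed by limma, with 2 at an unadjusted p under 0.05. In the 4 other libraries, without control 3 and Skiv2l-deleted 2, Cd44 fell and Mif rose. Of 4 tested costimulation genes, 0 passed by limma, with 0 at an unadjusted p under 0.05, and without both libraries 0 of 2 passed. H2-Eb2, the non-member beta gene whose promoter stretch is given above, was at 1.77, 1.57 and 0.776 FPKM in controls and 1.52, 1.21 and 1.84 FPKM in Skiv2l-deleted libraries, and did not pass (limma adjusted p = 0.809).

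**Figure D3:**
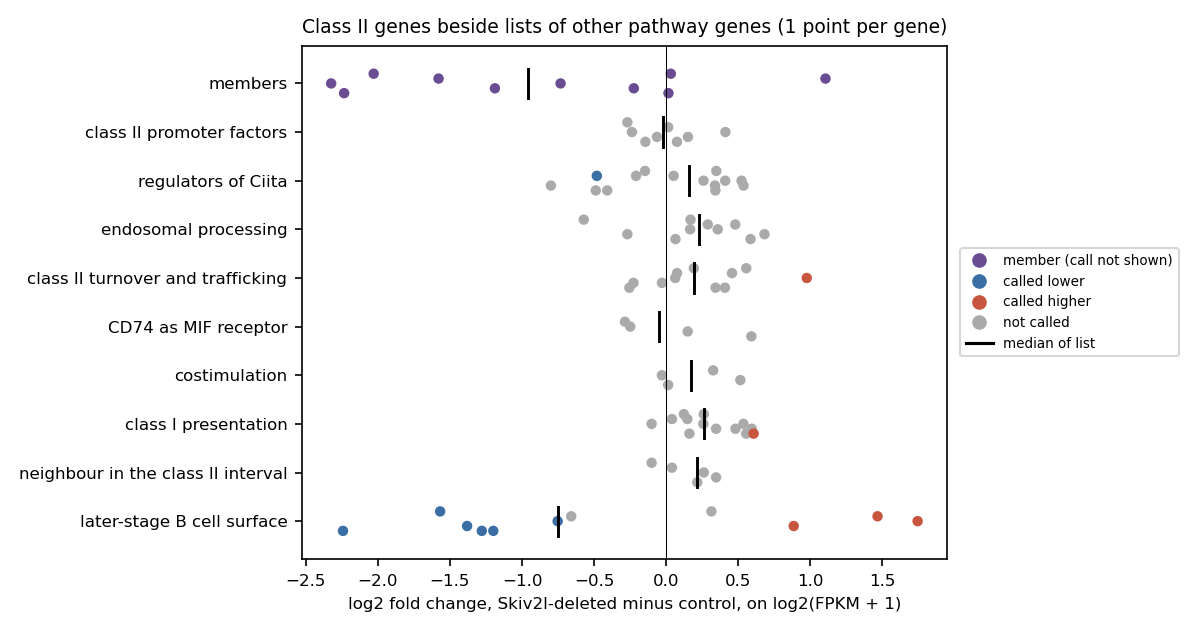
Log2 fold change, Skiv2l-deleted minus control on log2(FPKM + 1), for the 10 class II genes (purple, calls not shown) and for the tested genes of 9 other lists, 1 point per gene; blue was called lower, red called higher, grey not called, and the black bar is the list's median. The medians run from −0.96 for the 10 genes to 0.26 for class I presentation, with later-stage B cell surface genes at −0.75.

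On chromosome 17, the 8 H2 members lie within 224 kb, 523 to 744 kb from the nearer end of Skiv2l, which is itself in the MHC (34839228 to 34850210). Both groups carry the same floxed allele. The 5 other protein-coding genes between the outermost members are Brd2, Psmb8, Psmb9, Tap1 and Tap2. All but Brd2 are also in the class I list of the next paragraph, so the lists are not separate observations. By limma 0 of the 5 were called (0 at an unadjusted p under 0.05), at a median of 0.22. Tap1, a peptide transporter of the class I pathway that lies between the DM beta genes and H2-Ob, was at 99.8, 83.3 and 113 FPKM in controls and 92.1, 106 and 105 FPKM in Skiv2l-deleted libraries. Without control 3 and Skiv2l-deleted 2, and also without control 3 alone, 1 of the 5 was called higher. In the 4 libraries it was the immunoproteasome subunit gene Psmb8.

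Of 13 tested class I presentation genes, 1 rose and 0 fell, at a median of 0.26, with 4.97% of all genes tested called higher. Erap1, the peptidase that trims class I peptides in the ER, rose from 16.9 ± 2.06 to 26.3 ± 3.42 FPKM (limma adjusted p = 0.0475), a call that was lost when any single library was left out (highest limma adjusted p = 0.19). Without control 3 alone 2 of the 13 were called higher. There were 3 without control 3 and Skiv2l-deleted 2, H2-K1, Psmb8 and Erap1 (limma adjusted p = 0.0229 for Erap1). B2m, the class I light chain, was at 1331, 1519 and 1103 FPKM in controls and 1903, 1798 and 2068 FPKM in Skiv2l-deleted libraries, without overlap and without passing (limma adjusted p = 0.0681).

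Surface genes of later B cell stages were split. Of 11 tested, 6 fell (Ms4a1, Fcer2a, Cd22, Il2ra, Cd2, Ccr7) and 3 rose (Cxcr5, Ltb, Cd69), at a median of −0.75. Among all genes tested, 3.87% were called lower and 4.97% higher, which also applies to the marker counts below. Fcer2a, the low-affinity IgE receptor CD23 of mature B cells, was at 2.16, 1.56 and 2.31 FPKM in controls and 0.0554, 0.25 and 0.145 FPKM in Skiv2l-deleted libraries (log2 fold change −1.38 ± 0.17, limma adjusted p = 0.00807). Ccr7, a homing receptor, was at 24.3, 32.3 and 18.4 FPKM against 10.4, 10.4 and 7.84 FPKM (−1.28 ± 0.22, limma adjusted p = 0.0176). With control 1 left out 0 of them were called lower, with control 2 left out 1, and with control 3 left out 3. Leaving out Skiv2l-deleted 1 gave 2 lower calls and leaving out Skiv2l-deleted 3 gave 1. Whenever a control was left out, Fcer2a no longer passed the filter. It had passed only through the controls, so it could only come out lower and its call supports nothing. Higher calls numbered 1 if Skiv2l-deleted 1 or 3 was left out and 2 if control 1 was. With no filter on low values, 1 was called lower and 1 higher. Of 10 tested without control 3 and Skiv2l-deleted 2, 5 fell and 3 rose, with 5.73% and 7.3% of all genes tested. All 6 mature B cell markers are also in this list, so they are no separate observation, and they leave out the 3 genes that rose. They summed to 171 to 203 FPKM in controls and 87.7 to 128 FPKM in Skiv2l-deleted libraries. Of these markers, 4 of 5 tested fell, all of them counted above, and Cr2 was below 1 FPKM in all 6 libraries. Plasma cell markers summed to 271 to 529 FPKM in controls and 54.9 to 83.9 FPKM in Skiv2l-deleted libraries. Of 4 tested, 3 were called lower (Jchain, Sdc1, Igha). Igha and Jchain passed the filter only through the controls, so they could only come out lower and their calls support nothing. Igha made up most of the control sums, at 216, 164 and 380 FPKM in controls and 0.302, 0 and 0.0845 FPKM in Skiv2l-deleted libraries. Xbp1 overlapped between the groups (means of 42.9 and 54.4 FPKM), and Prdm1 and Tnfrsf17 were below 1 FPKM in all 6. The part of these other B lineage cells in the lower class II values was not tested.

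The genes most like H2-Aa over the 6 libraries were found by the Euclidean distance between centred profiles of log2(FPKM + 1), leaving out immunoglobulin and T cell receptor segments. H2-Eb1 was the nearest of all genes, at a distance of 0.21. The 6 nearest genes outside the set were Rasgrp1, a Ras activator (0.41), Gpr12, a G protein-coupled receptor (0.57), Cenpv (0.67), Myzap (0.69), the B cell Src-family kinase gene Blk (0.72) and Egfl6 (0.76). Blk was at 151, 142 and 150 FPKM in controls and 40.6, 53.0 and 40.3 FPKM in Skiv2l-deleted libraries. Cd74 had rank 20 (0.99), Ciita rank 24 (1.05) and H2-Ab1 rank 64 (1.44), while H2-DMb2 had rank 231 and the other 4 members ranked from 2288 to 12996. The distance is a description over 6 libraries and mainly follows the size of the group difference.

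Some class II genes were highest in the libraries that were also highest in monocyte markers. In Skiv2l-deleted 2, Cd74 was 2.13 times the mean of Skiv2l-deleted 1 and 3, H2-DMa 2.07, H2-DMb1 2.28, H2-DMb2 1.89, H2-Eb1 1.89 and H2-Aa 1.58 times. H2-Ab1 (0.91), Ciita (0.979), H2-Oa (0.988) and H2-Ob (0.925) were not raised there. In control 3, H2-DMa was 1.54, H2-DMb1 1.59, H2-Oa 1.33 and Cd74 1.30 times the mean of controls 1 and 2. Over the same comparisons the lysozyme gene Lyz2 was 14.1 and 5.50 times and the myeloperoxidase gene Mpo 118 and 43.5 times. The list of neutrophil markers was not uniform in this. It summed to 442 FPKM in control 2 and 346 FPKM in Skiv2l-deleted 1 as well, against 895 FPKM in control 3 and 1501 FPKM in Skiv2l-deleted 2, and its member Ngp was highest in control 2 (58.3 FPKM) and Skiv2l-deleted 1 (49.6 FPKM). The 7 markers of conventional dendritic cells, another class II-rich type, summed to 9.59 FPKM in Skiv2l-deleted 2 and to 0.326 to 2.64 FPKM in the other 5 libraries. 3 of them (Zbtb46, Xcr1, Ccl22) were below 1 FPKM in all libraries. Markers of plasmacytoid dendritic cells summed to 54.5 to 95.2 FPKM in controls and, without overlap, 100.4 to 155 FPKM in Skiv2l-deleted libraries. By limma 0 of 4 tested were called, with 1 at an unadjusted p under 0.05. Most of each sum came from Bst2 (20.6 to 51.4 FPKM in controls, 56.9 to 80.8 FPKM in Skiv2l-deleted libraries) and Tcf4. These genes alone did not overlap between the groups, while Siglech, Ccr9, Clec12a and Lair1 did. Siglech, the defining marker of plasmacytoid dendritic cells, was at 0.137 to 1.04 FPKM in 5 libraries and 6.09 FPKM in Skiv2l-deleted 2. T cell receptor complex genes Cd3e, Cd3d and Cd3g were below 1 FPKM in all 6, as were Cd4 and Cd8a. The other T cell markers listed were not: Lck was at 19.9 to 36.4 FPKM and Trbc2 at 0.256 to 2.79 FPKM. Both overlapped between the groups. Erythroid markers summed to 199.5 FPKM in Skiv2l-deleted 2 and to 2.84 to 7.91 FPKM in the other 5 libraries, with control 3 the lowest. Of the 4 tested, 0 were called by limma. The part of myeloid and dendritic cells in the values of the 10 genes was not tested. Without control 3 and Skiv2l-deleted 2, the log2 fold changes of H2-Aa (−2.47), H2-Eb1 (−2.65), Cd74 (−1.82) and Ciita (−2.39) were further from 0, and that of H2-Ab1 was −1.08.

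**Figure D4:**
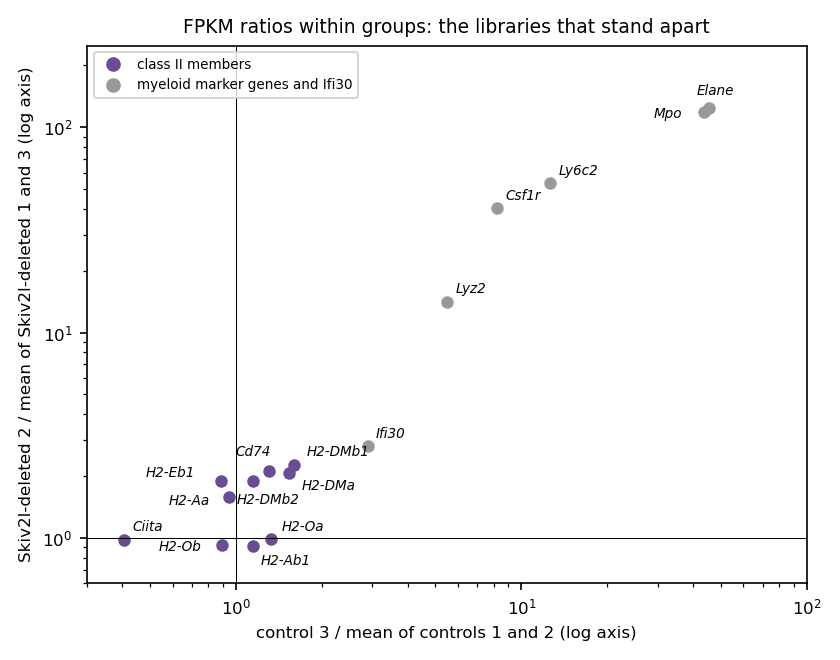
For each gene, FPKM in control 3 over the mean of controls 1 and 2 (x, log axis) against FPKM in Skiv2l-deleted 2 over the mean of Skiv2l-deleted 1 and 3 (y, log axis), with 1 as no difference within the group. The myeloid genes shown, picked after their values were seen and including Mpo (43.5 and 118), lie at the upper right, Cd74 and the DM genes lie at 1.15 to 1.59 on x and 1.89 to 2.28 on y, and H2-Ab1, H2-Ob, H2-Oa and Ciita lie at 0.91 to 0.988 on y.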

How the data were processed

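Each of the 6 libraries had 1 deposited table with FPKM, TPM and mean coverage per gene, computed by the authors, per the file headers. Libraries were strand-specific mRNA libraries, per the labels' protocols, with GRCm38 named as build by the submitters' processing notes. Aligner and quantifier: not given in the sources used here. Lines of the same gene identifier (7 to 9 per table) were summed. Depth was deduced from the authors' coverage signal over FPKM in single-transcript genes. Read counts were not used here, so no count model was run.

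The test was limma 3.58.1 in R 4.3.3 (eBayes with trend) on log2(FPKM + 1), for 13539 genes reaching 1 FPKM in at least 3 libraries, genotype as the only term, Benjamini-Hochberg adjusted over all of them, threshold 0.05. It was tested on simulated data. Intervals are 95% from this fit. TPM, pseudocounts of 0.1 and 5, other filters, scalings and omissions were alternatives. Members, lists and tests were chosen with earlier results of these data known. Named were the 10 members, called genes of the pathway lists, the RFX genes, called neighbours, Skiv2l and the 6 profiles nearest to H2-Aa. Other genes were named after their values were seen. Replicates are separate mice. The labels do not say whether shared replicate numbers mark a pairing, and the libraries were treated as unpaired. Transcripts (GENCODE M21, aligned with Biopython 1.88) took the place of protein identity, for which no table was used here. H2-DMb1's promoter stretch, in an annotated UTR, is not shown.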

Additional observations from a re-analysis of the deposited data

How the results depend on the processing

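All 169 log2 fold changes of the 10 genes over 17 alternatives kept within 1 SD of the replicates, except 3: Ciita at −2.74 with a pseudocount of 0.1 and −1.03 with a pseudocount of 5, and H2-Eb1 at −1.83 with a pseudocount of 5. The settings with no filter, the 5 FPKM filter, the replicate block or eBayes without trend cannot change a gene's log2 fold change. Their values equal those of the main fit by construction and are no check of it. Ciita had no value at the 5 FPKM filter. H2-DMa (−0.31 to 0.22), H2-DMb1 (−0.57 to 0.05) and H2-Ob (−0.05 to 0.16) took both signs. The 1197 genes called became 512 with no filter, 365 with the replicate block, and 179 to 1749 when 1 library was left out. Other class II pathway genes called lower (1) became 0 with quantile normalization or the replicate block, 5 when control 3 and Skiv2l-deleted 2 were both left out, and 0 to 2 when 1 library was left out. Those called higher (1) became 6 with both left out and ranged from 1 to 4 in the omissions. Neighbours called higher (0) became 1 with both left out and ranged from 0 to 1 in the omissions. Under the replicate block the limma adjusted p of Ezh2 was 0.138. The replicate numbers share no stated batch, so the block is not read as a paired analysis. The deviations of same-numbered libraries from their group means correlated at 0.0939, −0.428 and −0.355. With so few libraries per group, these correlations cannot decide whether the numbers mark a pairing. In the omissions a group of 2 is assumed to vary like the other. The causes of these shifts were not tested.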
